A study of Mus musculus with 15 samples.

Results

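The interferon response genes studied here are 44 interferon-stimulated genes, named by symbol and looked up among the 54281 Ensembl gene IDs of a mouse liver expression table. All 44 were found. The rule of the list goes by name, but the members were chosen with earlier results of these data known. The 15 male C57BL6J mice were 9.5 months old per the labels, and each gave 1 liver RNA library. The DEN/HFD animals had received the liver carcinogen diethylnitrosamine (DEN, 25 mg/kg) at 2 weeks of age and, after a period on chow, 32 weeks on lard-based high fat feed (HFD, with 60% of its energy from lard), as a model of progressive fatty liver. The chow animals had received only the vehicle of DEN and stayed on chow. Within each diet, animals were injected intraperitoneally either with MCOPPB (5 mg/kg, 5 days of injection and 2 days of washout per cycle, 3 cycles in 21 days), a ligand of the nociceptin/orphanin FQ receptor, or with saline. The groups were DEN/HFD MCOPPB (n = 3), DEN/HFD saline (n = 4), chow MCOPPB (n = 5) and chow saline (n = 3). No group had DEN or HFD alone, so those exposures cannot be told apart.

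Interferons are secreted proteins that cells release on sensing foreign or misplaced nucleic acids. Type I interferons act through the receptor chains Ifnar1 and Ifnar2 and a complex that holds STAT2 and IRF9 and binds a DNA element called ISRE. Type II interferon (interferon gamma) acts through Ifngr1 and Ifngr2 and through transcription factor dimers that bind a different element called GAS. Both arms induce overlapping sets of genes for nucleic acid sensing, antiviral defence, cell-autonomous defence by GTPases, and the processing of peptides for MHC class I molecules. In liver, hepatocytes, Kupffer cells (the resident macrophages) and endothelial cells can all respond. By role, the 44 genes held 4 sensors, 3 transcription factors, 2 genes of the ISG15 system, 4 Ifit genes, 6 oligoadenylate synthetase and PKR genes, 6 Mx and other antiviral effectors, 8 interferon-inducible GTPases, 4 genes of MHC class I antigen processing and 7 others.

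The promoters show the DNA element that many of these genes share. RefSeq windows (GRCm38.p6) from 250 bases before to 50 bases after a gene's start were found for 31 of the 44 genes. The core of an ISRE, spelled here as GAAA and again GAAA with NN (2 bases of any kind) between them, was searched on both strands, with overlapping matches allowed. These ISRE letters were present in 20 of the 31 genes (64.5%), against 3.99% of the 27025 genes with a window. The letters TTCNNNGAA, a GAS core that reads the same on both strands, were present in 9 of 31 genes (29%), against 9.55% of all genes. All 6 matched GTPase genes carried the ISRE letters, and none of the 3 matched genes of MHC class I antigen processing did. These are matches of letters and not measured binding. The stretches below are examples of matches before the start, from genes of different roles whose values are given in the results, each 5′ to 3′ on the gene's own strand, with the ISRE letters of either strand in capitals.
Stat2 (chr10:128270251-128270310, plus strand): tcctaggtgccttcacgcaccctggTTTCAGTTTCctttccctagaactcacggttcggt
Isg15 (chr4:156200850-156200909, minus strand): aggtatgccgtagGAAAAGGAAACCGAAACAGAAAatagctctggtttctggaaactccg
Ifit3 (chr19:34583373-34583441, plus strand): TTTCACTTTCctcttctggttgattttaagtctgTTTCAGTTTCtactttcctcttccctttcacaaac
Oas1g (chr5:120887614-120887650, minus strand): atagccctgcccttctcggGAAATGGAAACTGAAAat
Rsad2 (chr12:26456538-26456597, minus strand): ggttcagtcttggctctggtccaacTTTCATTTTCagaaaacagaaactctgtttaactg
Bst2 (chr8:71537562-71537621, minus strand): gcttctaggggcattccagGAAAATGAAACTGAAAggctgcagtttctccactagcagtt
Gbp2 (chr3:142620579-142620638, plus strand): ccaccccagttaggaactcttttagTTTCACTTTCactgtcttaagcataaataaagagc
Gbp3 (chr3:142559980-142560039, plus strand): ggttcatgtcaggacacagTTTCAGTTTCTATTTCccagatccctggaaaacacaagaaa
Gbp7 (chr3:142530258-142530317, plus strand): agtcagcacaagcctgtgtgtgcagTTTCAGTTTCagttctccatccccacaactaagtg
Igtp (chr11:58199497-58199555, plus strand): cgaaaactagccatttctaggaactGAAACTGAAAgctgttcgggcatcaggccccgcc
Overlapping matches ran together in Isg15, Oas1g, Bst2 and Gbp3. The match nearest the start lay 66 to 57 bases before it in Isg15 and 34 to 25 bases before it in Igtp.

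The deposited values are the authors' variance-stabilised levels on a log2 scale. They were also turned back into normalized counts (reads scaled for depth), which are used for levels below. The libraries held an estimated 9.32 M to 18.7 M reads assigned to genes. The albumin-led hepatocyte markers summed to at least 1549985 normalized counts in every liver. A pair of libraries, chow MCOPPB 4 and chow saline 2, stood apart by their share of mitochondrial transcripts (30.95% and 29.3%, against 12.01% to 23.31% in the others). The labels give each sample more than 1 RNA integrity number (RIN); the first was 8.7 to 9.2 in DEN/HFD MCOPPB, 8.4 to 9.2 in DEN/HFD saline, 9.9 to 10 in chow MCOPPB and 9 to 9.7 in chow saline.

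Of the 44 genes, 43 passed the filter for testing (at least 1 log2 above the lowest value of the table, about 22.5 normalized counts, in at least 3 libraries). Oas3, a sensor of double-stranded RNA that makes the activator of RNase L, passed in 1 library only and was not tested. Just inside the filter, Oas1g and Mx1 passed in exactly 3 libraries each. For Mx1 these were the 3 chow saline livers, so that gene entered the test through the group in which it was high. For Oas1g they were chow MCOPPB 4, chow MCOPPB 5 and DEN/HFD saline 2. No chow saline liver passed for Oas1g, so its differences from chow saline carry a like limit. As many as 40 of the 44 genes lay above the lowest value in every library.

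Per kilobase of exon, the highest mean level over the 15 livers belonged to Bst2 (tetherin, which holds budding virus at the cell surface), at 886 normalized counts per kb. Ly6e, a membrane-anchored restriction factor, followed at 725 per kb and Iigp1, an immunity-related GTPase, at 449 per kb. Ifi27 stood at 431 and Igtp at 186 per kb, while Mx1 (3.34) and Oas3 (1.28) were lowest. The lead was not set by 1 group: Bst2 averaged 874 ± 220 normalized counts in DEN/HFD MCOPPB, 800 ± 247 in DEN/HFD saline, 806 ± 208 in chow MCOPPB and 717 ± 245 in chow saline (SD, n = 3, 4, 5 and 3), and these ranges overlapped. Bst2 is also a marker of plasmacytoid dendritic cells. Iigp1 averaged 3006 ± 761 in DEN/HFD MCOPPB, 2806 ± 574 in DEN/HFD saline, 2329 ± 483 in chow MCOPPB and 2452 ± 107 in chow saline.

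The livers were not uniform within a group. The mean log2 level over the 43 tested genes was 7.93 to 8.05 in DEN/HFD MCOPPB, 7.53 to 8.04 in DEN/HFD saline, 7.73 to 8.12 in chow MCOPPB and 7.51 to 7.69 in chow saline. All 5 chow MCOPPB livers thus lay above all 3 chow saline livers, while DEN/HFD saline spanned nearly the whole range. Within chow MCOPPB, liver 2 held the highest value of its group for 27 of the 43 genes. Within DEN/HFD saline, livers 4 and 3 held the lowest value for 20 and 17 genes, and livers 2 and 1 the highest for 20 and 17. Genes of 1 liver therefore move together, and counts of genes below are not counts of independent observations.

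**Figure D1:**
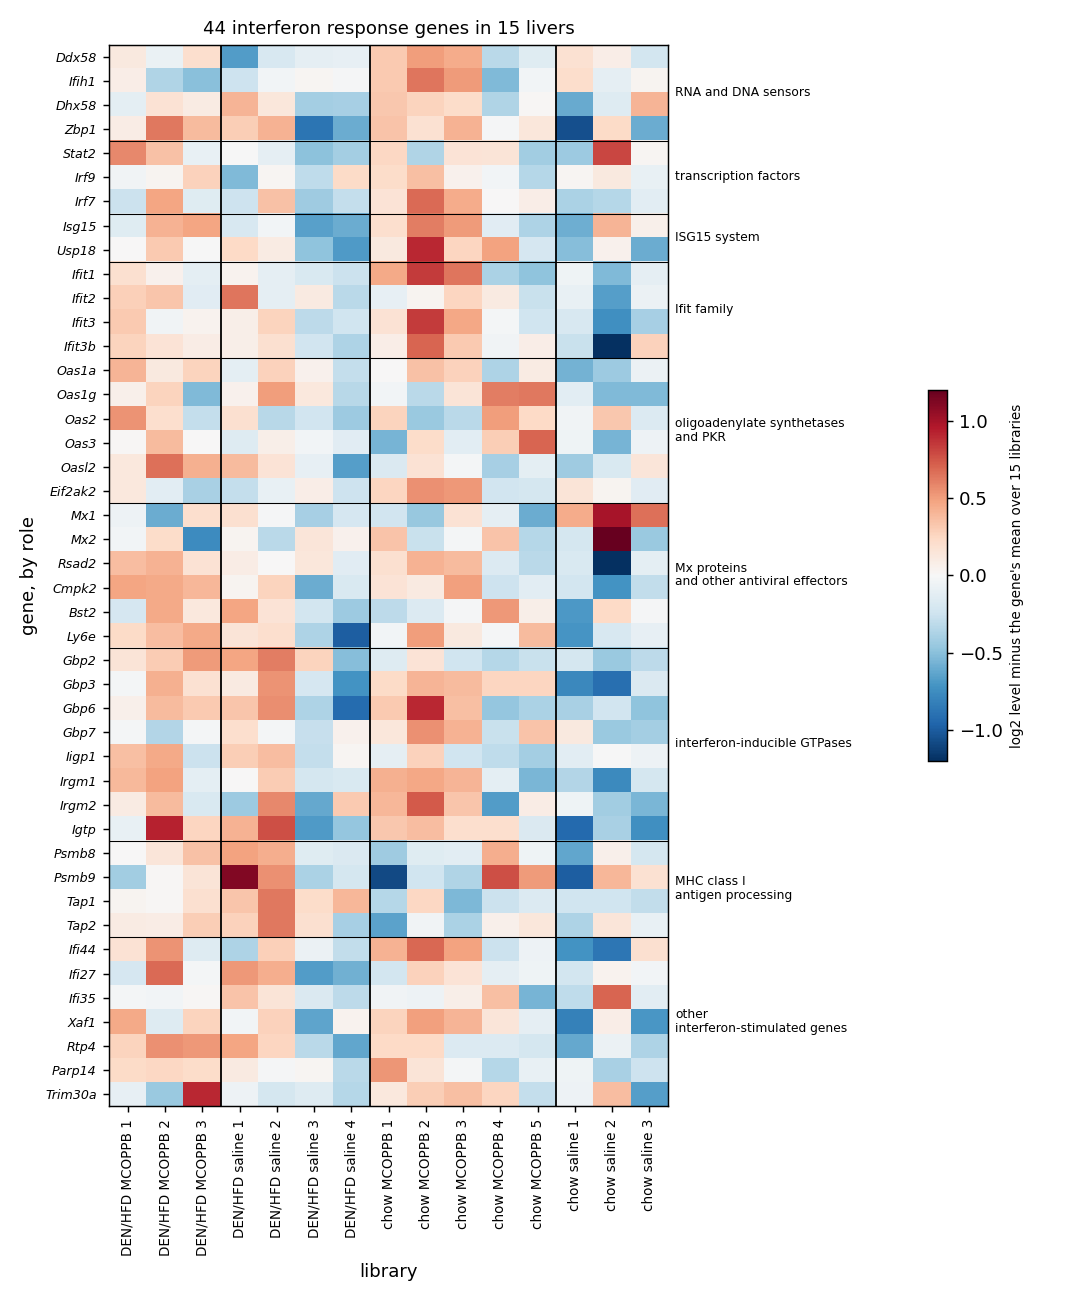
Log2 level of each of the 44 genes (rows, by role) in each of the 15 livers (columns, by group), minus the gene's mean over the livers; red is above and blue below that mean, and colours saturate at the ends of the bar. Chow MCOPPB 2 is red over most rows, DEN/HFD saline 3 and 4 are mostly blue, and Mx1 is red in the 3 chow saline livers.

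In chow-fed mice, most interferon response genes had a higher mean with MCOPPB than with saline, and no single gene passed the test. Of the 43 tested genes, 37 had a positive log2 difference (50.1% of all 11568 tested genes did), and the median difference was 0.27 against 0.00 over all genes. With limma and Benjamini-Hochberg adjustment over all genes, 0 of 43 were called at an adjusted p under 0.05, against 0.32% of all genes. At an unadjusted p under 0.05, 15 genes were higher with MCOPPB (4.76% of all genes were) and Mx1 was lower (4.3% were). The minus direction without overlap held Mx1 alone, near the share of 2.14% of all genes. In 4 genes, Gbp3, Igtp, Irf7 and Ly6e, every MCOPPB liver exceeded every saline liver, against 2.64% of all genes. Ly6e had 2581, 3780, 2876, 2607 and 3458 counts in chow MCOPPB livers, against 1583, 2308 and 2463 in chow saline livers (0.52 ± 0.25 log2, limma adjusted p = 0.554).

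Gbp3 and Igtp, both GTPases, had the largest of these differences after Mx1. By group, the median was 0.52 log2 for the GTPases and 0.55 log2 for the Ifit family. Gbp3 (chr3:142560026-142573209, GRCm38, plus strand), a guanylate-binding protein of the kind that attacks pathogen vacuoles, had 131, 157, 152, 134 and 135 normalized counts in the 5 chow MCOPPB livers, against 34.8, 27.4 and 82.6 in the 3 chow saline livers. The groups did not overlap, the ratio of means was 2.94, and the difference was 0.92 ± 0.23 log2 (limma SE, adjusted p = 0.144). Igtp (chr11:58199556-58207591, plus strand), an immunity-related GTPase also called Irgm3, had 454, 469, 410, 409 and 297 counts in chow MCOPPB livers, against 144, 245 and 176 in chow saline livers. Here too the groups did not overlap (0.87 ± 0.29 log2, limma adjusted p = 0.335). The spans of Igtp and Irgm2 overlap by 7974 bases on the same strand in GENCODE M21, and how the authors assigned such reads is not given in the sources used here. Of the 8 GTPases, 7 had a positive difference in chow livers and none was called. Iigp1 was the exception, at -0.09 ± 0.21 log2. Gbp7, another guanylate-binding protein, differed by 0.48 ± 0.20 log2, with 114, 176, 154, 70.3 and 142 counts in MCOPPB livers, against 112, 55.3 and 58.3 in saline livers, which overlapped.

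Among the transcription factors, Irf7, which amplifies type I interferon production, had 317, 487, 403, 275 and 294 counts in chow MCOPPB livers, against 193, 199 and 245 in chow saline livers. These did not overlap, and the difference was 0.56 ± 0.22 log2 (limma adjusted p = 0.431). Stat2 and Irf9, subunits of the type I complex, overlapped between the groups. Stat2 averaged 375 ± 95.6 counts with MCOPPB and 456 ± 238 with saline, where liver 2 alone had 721. Irf9 averaged 225 ± 54.4 with MCOPPB and 214 ± 20.8 with saline (SD, n = 5 and 3).

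Mx1 had the opposite sign. Its product blocks influenza virus in mice that carry an intact gene, while C57BL/6 mice carry a deletion in it. Mx1 (chr16:97447035-97462907, minus strand) had 3.04, 0.467, 13.1, 5.18 and 0 counts in chow MCOPPB livers, against 24.5, 60.2 and 36.8 in chow saline livers. The groups did not overlap, and the difference was -0.94 ± 0.23 log2 (limma adjusted p = 0.124), with every chow MCOPPB liver under the filter level. Since only the 3 chow saline livers passed the filter, all other livers lay below them by that selection. The p values and the lack of overlap of Mx1 against chow saline are therefore not support for a difference. In DEN/HFD livers Mx1 had 6.37, 0 and 14.4 counts with MCOPPB and 13.9, 7.57, 0.916 and 3.43 with saline, all below the 3 chow saline livers.

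All 4 Ifit genes, both genes of the ISG15 system and all 5 tested genes of the synthetase and PKR group had positive differences in chow livers too, as did 4 of the 6 Mx and other antiviral effectors. Beside Mx1, the exception was Mx2, which had 56.2, 19.2, 31.4, 56.2 and 16.3 counts in MCOPPB livers, against 21.5, 165 and 12.4 in saline livers (-0.19 ± 0.32 log2, limma adjusted p = 0.9). Its groups overlapped, and chow saline 2 alone was above the MCOPPB range. Ifit3, which binds viral RNA together with Ifit1, averaged 215 ± 87.8 counts with MCOPPB and 102 ± 31.2 with saline (0.68 ± 0.22 log2, limma adjusted p = 0.313); Ifit3 and Ifit3b are near-identical copies, so their split is uncertain. Usp18, the protease that removes ISG15 and damps type I signalling, had 101, 226, 118, 151 and 68.3 counts in MCOPPB livers, against 43.8, 93.8 and 38.3 in saline livers (0.66 ± 0.25 log2, limma adjusted p = 0.421). Both genes overlapped between groups. Isg15 itself, the ubiquitin-like modifier, averaged 140 ± 58.9 with MCOPPB and 113 ± 58.5 with saline. Xaf1, an interferon-induced pro-apoptotic factor, averaged 100 ± 26.3 with MCOPPB and 41.4 ± 34.4 with saline. Ifi44 averaged 59.1 ± 30.2 with MCOPPB and 20.1 ± 26.0 with saline (SD, n = 5 and 3). The MCOPPB and saline ranges of Isg15, Xaf1 and Ifi44 overlapped. Xaf1 (0.72 ± 0.24 log2) and Ifi44 (0.72 ± 0.27 log2) differed by similar amounts, and neither was called (limma adjusted p = 0.321 and 0.406). Rsad2 (viperin) averaged 70.6 ± 28.9 with MCOPPB and 32.2 ± 26.1 with saline, where liver 2 had 2.22 counts. Zbp1, a sensor of Z-form nucleic acids, averaged 94.3 ± 19.1 with MCOPPB and 44.5 ± 44.8 with saline. Both overlapped, Zbp1 through chow saline 2. Oas1g, a low-level synthetase gene with the near-identical copy Oas1a, had 5.28, 0.902, 10.3, 29.6 and 30.6 counts in MCOPPB livers, against 3.54, 0 and 0 in saline livers. None of these last 3 was called. Oas1g passed the filter in no chow saline liver, so its positive difference is not support apart from that selection.

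**Figure D2:**
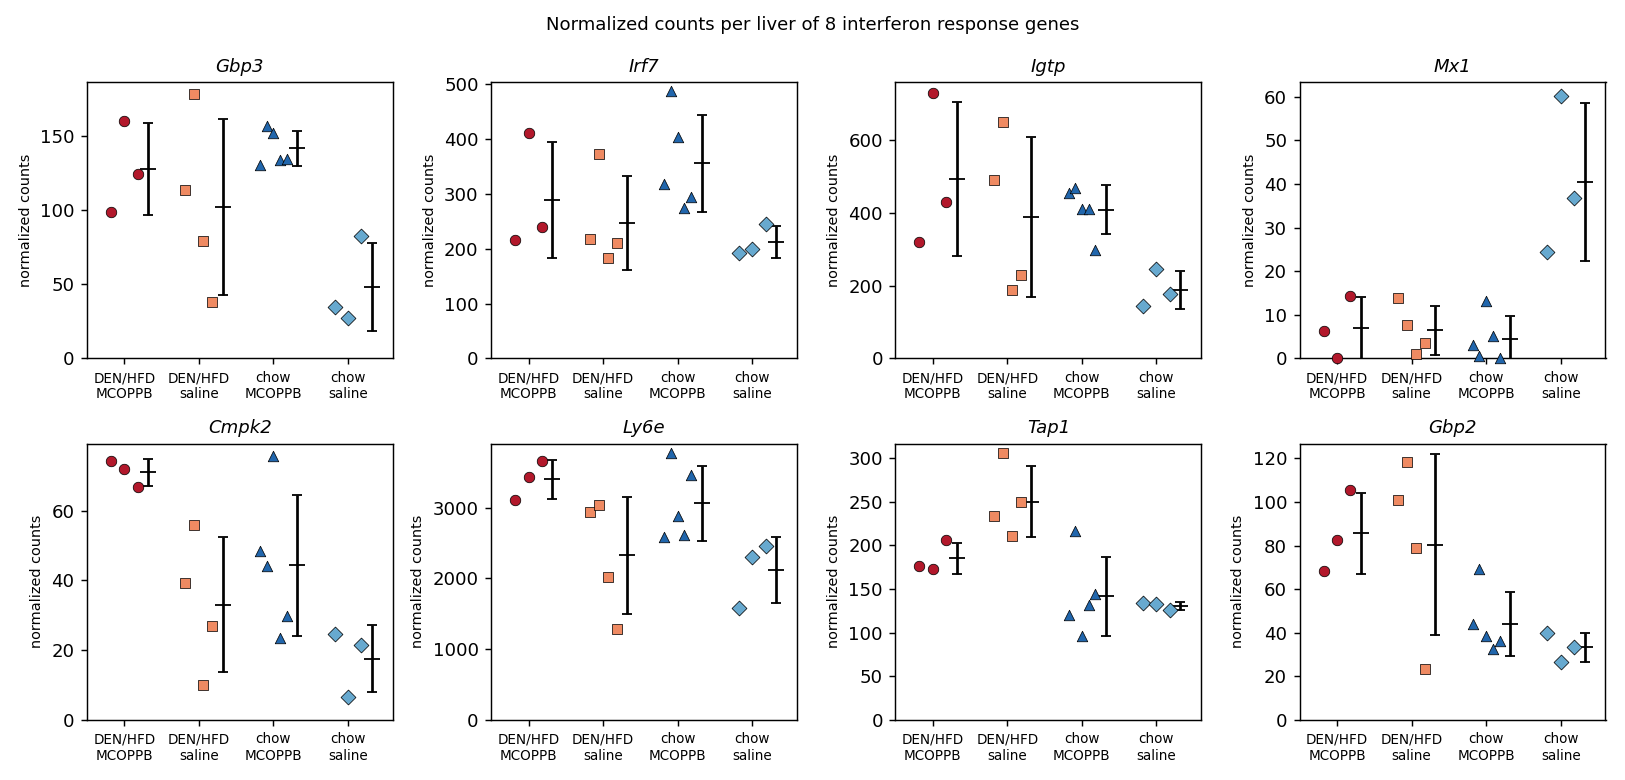
Normalized counts of 8 interferon response genes in each liver; points are livers, and the bar beside each group is the mean ± SD (n = 3, 4, 5 and 3, left to right). Gbp3, Irf7, Igtp and Ly6e separate chow MCOPPB from chow saline without overlap, Mx1 is high in chow saline alone, and Tap1 is highest in DEN/HFD saline.

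Macrophage and endothelial cell markers and RNA integrity moved with the chow comparison. All 8 Kupffer cell markers had a positive difference in chow livers (median 0.84 log2) and 0 were called by limma. Of them, 7 were higher without overlap (2.64% of all genes) and 6 were higher at an unadjusted p under 0.05 (4.76%). Sinusoidal endothelial markers had 7 positive and 1 negative (median 0.31 log2), and tested monocyte and macrophage markers 6 positive and 2 negative (median 0.40 log2). Stellate cell markers had 1 positive and 7 negative (median -0.09 log2). The summed level of the Kupffer cell markers was 1959 to 3607 counts in chow MCOPPB and 1021 to 1287 in chow saline, and none of the 8 was at 0 throughout. More cells of a type and more RNA per cell cannot be told apart in bulk tissue. With the first RIN as a covariate, the median difference of the 43 genes was 0.0394 log2 with 0 called. The part of macrophage and endothelial cell content and of RNA integrity in the differences was not tested.

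**Figure D3:**
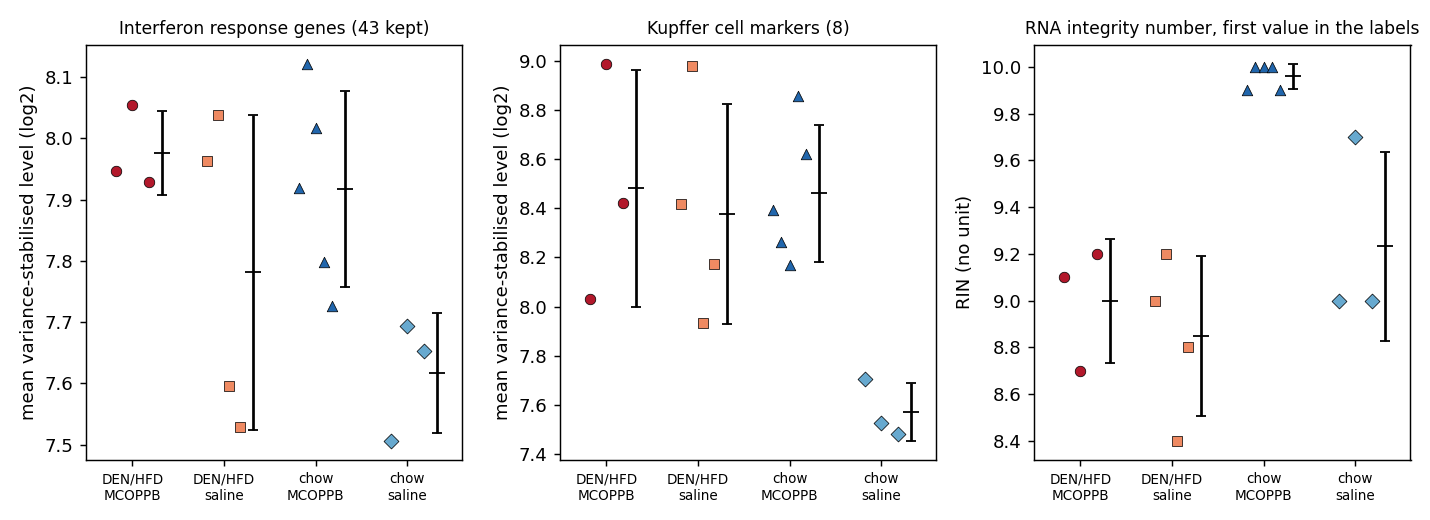
Mean log2 level of the 43 tested genes (left), of 8 Kupffer cell markers (middle) and the first RIN of the labels (right) in each liver, with the mean ± SD of each group (n = 3, 4, 5 and 3, left to right). Chow MCOPPB lies above chow saline without overlap in each of the 3 panels, and DEN/HFD saline is split into a pair of higher and a pair of lower livers in the left panel.

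Under DEN/HFD, MCOPPB livers also had higher means for most of the genes, and again no single gene passed the test. Of the 43 genes, 34 had a positive difference (49.3% of all genes did), with a median of 0.24 log2. By limma, 0 were called (0.0259% of all genes were), and 4 were higher at an unadjusted p under 0.05 (2.3% were), with 0 lower (2.44%). In 5 genes every MCOPPB liver exceeded every saline liver (3.22% of all genes): Cmpk2, Ly6e, Ddx58, Parp14 and Rsad2. Tap1 alone had the reverse order without overlap, which is under the share of 3.74% of all genes. Of the 8 Kupffer cell markers, 6 had a positive difference here (median 0.21 log2) and 0 were called, and their summed level was 2289 to 4583 counts in DEN/HFD MCOPPB and 1913 to 4231 in DEN/HFD saline. The part of these cells was not tested.

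Cmpk2, a mitochondrial nucleotide kinase that lies beside Rsad2 on chromosome 12, had 74.2, 71.9 and 66.8 counts in DEN/HFD MCOPPB livers, against 39.2, 55.9, 9.96 and 26.9 in DEN/HFD saline livers. The groups did not overlap, and the difference was 0.56 ± 0.22 log2 (limma adjusted p = 0.923). Its neighbour Rsad2 had 94.0, 99.3 and 73.7 in MCOPPB livers, against 66.5, 58.8, 71.0 and 48.4 in saline livers. Ly6e had 3114, 3436 and 3662 counts in MCOPPB livers, against 2946, 3045, 2021 and 1287 in saline livers (0.60 ± 0.26 log2, limma adjusted p = 0.955). In Ly6e the saline livers 1 and 2 came close to the MCOPPB livers, and livers 3 and 4 were far below. Ddx58, the RNA sensor RIG-I, had 174, 143 and 190 counts in MCOPPB livers, against 72.8, 127, 140 and 141 in saline livers, a gap of a few counts at its narrowest. Isg15 had 93.7, 172 and 182 in MCOPPB livers, against 88.5, 107, 47.3 and 51.5 in saline livers, which overlapped (0.62 ± 0.27 log2, limma adjusted p = 0.975). Rtp4, an interferon-induced inhibitor of RNA viruses, averaged 274 ± 37.1 with MCOPPB and 182 ± 86.6 with saline (SD, n = 3 and 4). The span of Rtp4 overlaps that of Masp1, a more abundant gene on the opposite strand, by 525 bases.

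The sensors and transcription factors varied among themselves under DEN/HFD. Stat2 had 605, 506 and 352 counts with MCOPPB, against 378, 347, 246 and 268 with saline. Irf7 averaged 289 ± 106 with MCOPPB and 246 ± 85.5 with saline. Ifih1 (MDA5), the sensor of long double-stranded RNA, averaged 185 ± 57.3 with MCOPPB and 219 ± 23.8 with saline. All of these ranges overlapped. Without saline liver 3 or saline liver 4 the median difference was 0.132 or 0.129 log2, and with the second RIN of the labels as a covariate, added after the data were seen, it was 0.00150. That second RIN was 9.1 to 9.6 in DEN/HFD MCOPPB and 8.9 to 9.2 in DEN/HFD saline.

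The MCOPPB differences under DEN/HFD and on chow were also set against each other. The difference of both effects (DEN/HFD minus chow) had a median of -0.15 log2, positive in 17 of 43 genes. By limma, 0 genes were called (0.0692% of all genes were) and at an unadjusted p under 0.05 there was Mx1 on the positive side (2.72%) and none on the negative side (3.18%). Mx1, which passed the filter through the chow saline livers alone, stood at 0.90 ± 0.33 log2 (limma adjusted p = 0.759). In order of p, Gbp7 (-0.60 ± 0.29 log2), Oas1g (-0.75 log2), Gbp3 (-0.65 ± 0.34 log2), Stat2 (0.70 log2) and Ifit3 (-0.53 log2) followed. Their signs thus differed, and Oas1g passed the filter in no chow saline liver. Their values in chow livers are those given above. The median was -0.0783 without chow MCOPPB 2, -0.0742 without chow MCOPPB 3, -0.0425 without chow saline 1, -0.0655 without DEN/HFD MCOPPB 1, -0.00244 without DEN/HFD saline 1, -0.0484 without DEN/HFD saline 2 and -0.260 without DEN/HFD saline 4. With the first RIN as a covariate it changed sign, to 0.181.

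A common MCOPPB difference was then fitted with diet as a further term. Of the 43 genes, 35 were positive (50% of all genes were) with a median of 0.24 log2. None was called by limma (0.372% of all genes were), and at an unadjusted p under 0.05 there were 17 higher (3.36%) and, with Mx1 alone, 1 lower (3.14%). All 8 Kupffer cell markers also had a positive common difference (median 0.56 log2), 6 of them at an unadjusted p under 0.05 (3.36% of all genes) and 0 called, and their part was not tested. With the second RIN as a covariate, chosen after seeing the data, the median of the 43 genes was 0.0836. Cmpk2 had the smallest p (0.52 ± 0.15 log2, adjusted p = 0.232), followed by Gbp3 (0.61 ± 0.18 log2, limma adjusted p = 0.286) and Ly6e (0.56 ± 0.18 log2, limma adjusted p = 0.345).

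**Figure D4:**
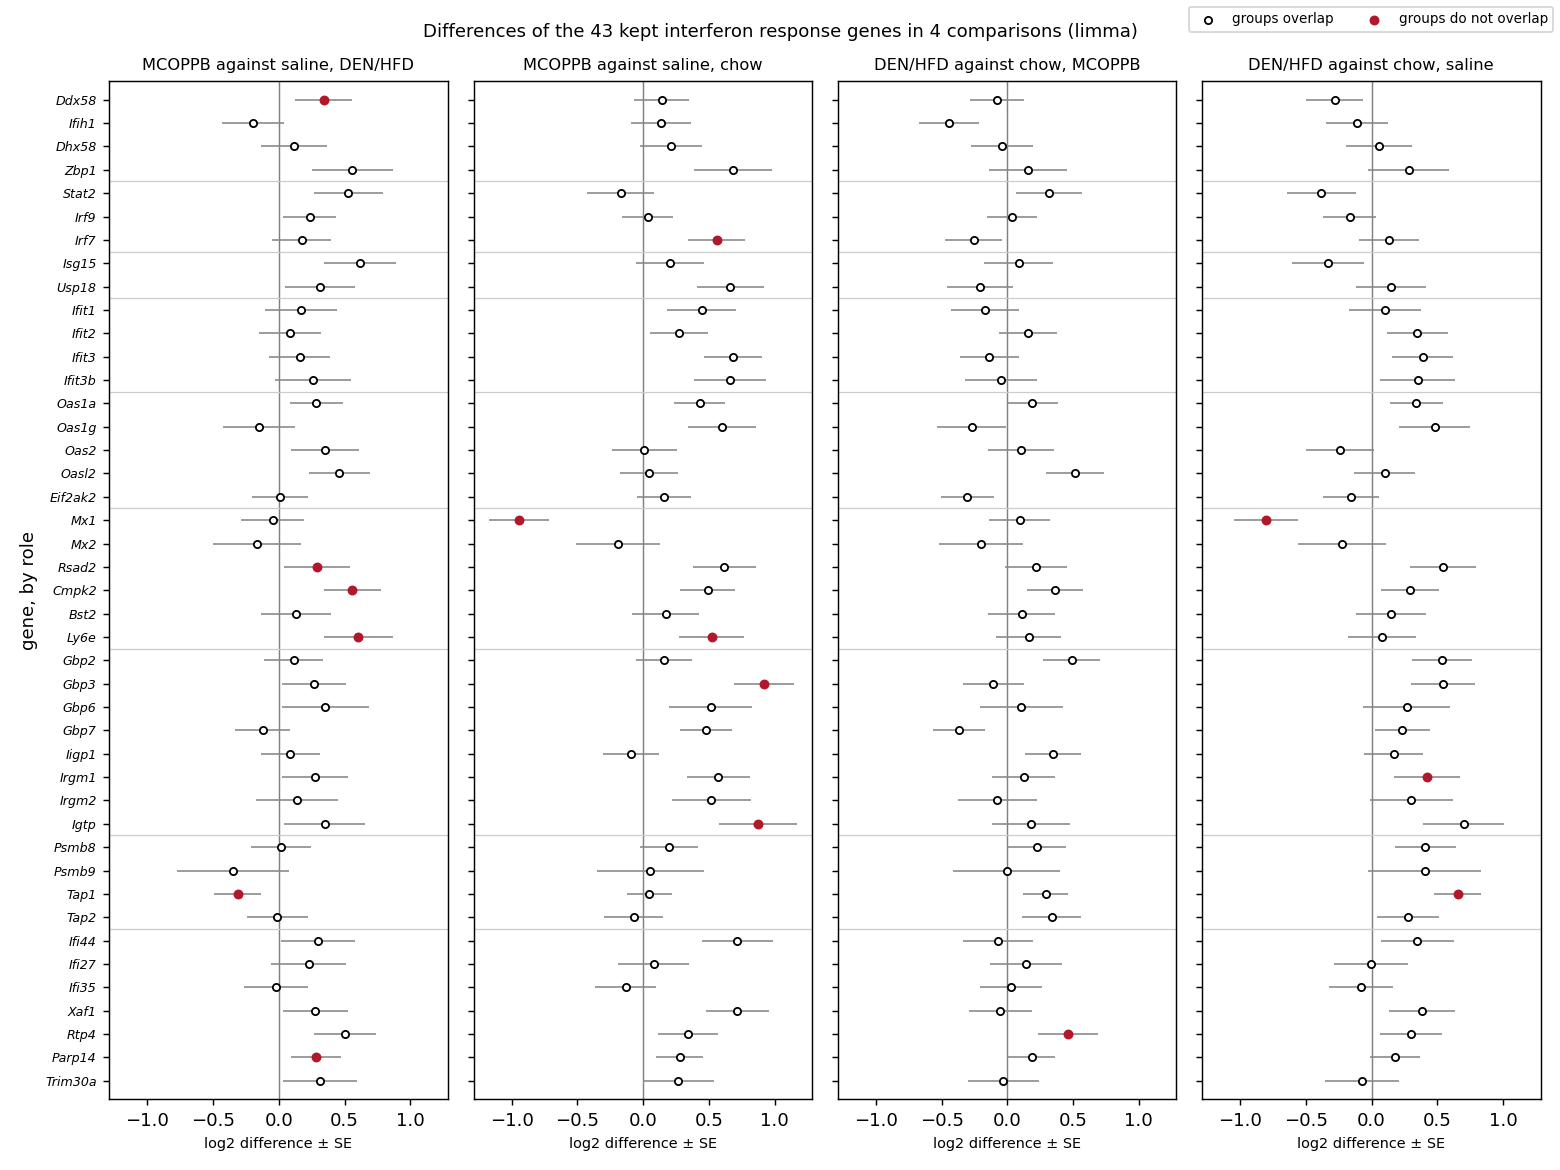
Log2 difference of each of the 43 tested genes (rows, by role) in 4 comparisons, with limma SE as bars; red points are genes whose groups do not overlap. Most points lie right of 0 in both MCOPPB comparisons, Mx1 lies far left in both comparisons that use chow saline livers, and Tap1 is left of 0 for MCOPPB under DEN/HFD and right of 0 for DEN/HFD with saline.

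DEN/HFD was compared with chow within saline-treated mice. There, 31 of 43 genes had a positive difference (51.4% of all genes did) and the median was 0.23 log2 (0.01 over all genes). By limma 0 were called (0.0519% of all genes were); 5 were higher (5.46%) and 1, Mx1, was lower (5.5%) at an unadjusted p under 0.05. Tap1 and Irgm1 were higher without overlap (4.73% of all genes), and Mx1, which passed the filter through chow saline livers alone, was lower without overlap (4.36%). Neither count was above the share over all genes. Irgm1 separated narrowly, with at least 403 counts in DEN/HFD saline livers against at most 401 in chow saline livers. Of the 8 Kupffer cell markers, 7 had a positive difference as well (median 0.95 log2), 5 were higher without overlap (4.73% of all genes) and 0 were called. Their sums were 1913 to 4231 counts in DEN/HFD saline and 1021 to 1287 in chow saline. Their part in the differences was not tested.

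Tap1 (chr17:34187553-34197225, plus strand), a subunit of the transporter that moves peptides into the endoplasmic reticulum for MHC class I, had 234, 306, 211 and 250 counts in DEN/HFD saline livers, against 134, 133 and 126 in chow saline livers. Every DEN/HFD saline liver was higher, with a ratio of means of 1.91 and a difference of 0.65 ± 0.18 log2 (limma adjusted p = 0.192). In DEN/HFD MCOPPB livers Tap1 had 176, 173 and 206 counts, below all 4 DEN/HFD saline livers (-0.31 ± 0.18 log2). Its neighbours in the MHC region had wider spreads: Psmb8, an immunoproteasome subunit, averaged 388 ± 115 in DEN/HFD saline and 271 ± 80.9 in chow saline, and Psmb9, another such subunit, 263 ± 166 and 179 ± 108 (SD, n = 4 and 3). All 4 genes of MHC class I antigen processing had a positive difference and none was called. The spans of Tap1 and Psmb9 overlap by 212 bases on opposite strands.

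All 8 GTPases had a positive difference between DEN/HFD saline and chow saline as well. Of them, 3 were higher at an unadjusted limma p under 0.05 (5.46% of all genes were). These 3 are among the 5 counted above for this comparison. Gbp2 had 101, 118, 78.9 and 23.2 counts in DEN/HFD saline livers, against 39.8, 26.6 and 33.5 in chow saline livers (0.53 ± 0.23 log2, limma adjusted p = 0.386). The groups overlapped through DEN/HFD saline 4. Igtp (0.70 ± 0.31 log2) and Gbp3 (0.54 ± 0.24 log2) also overlapped, with their lowest DEN/HFD saline values in livers 3 and 4. The chow saline livers are shared with the MCOPPB comparison on chow, so their low Gbp3 and Igtp values enter both. The median difference of the 43 genes was 0.145 without chow saline 1, 0.123 without DEN/HFD saline 1 and 0.0965 without DEN/HFD saline 2.

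DEN/HFD was compared with chow within MCOPPB-treated mice as well. The median was 0.09 log2, 25 were positive (49.4% of all genes were), 0 were called by limma (0.571%) and at an unadjusted p under 0.05 there were 2 higher (5.98%) and 0 lower (6.35%). The higher ones were Oasl2 and Gbp2. Oasl2, a 2′-5′-oligoadenylate synthetase-like gene, had 64.3, 122 and 93.3 counts in DEN/HFD MCOPPB livers, against 40.9, 67.9, 51.5, 27.8 and 45.1 in chow MCOPPB livers (0.52 ± 0.22 log2, limma adjusted p = 0.334). Gbp2 had 68.5, 82.4 and 106 in DEN/HFD MCOPPB livers, against 44.1, 69.0, 38.6, 32.3 and 36.4 in chow MCOPPB livers (0.49 ± 0.22 log2, limma adjusted p = 0.352). Both overlapped through chow MCOPPB 2. Rtp4 alone was higher without overlap, which is under the share of 4.63% of all genes, and no gene was lower without overlap (4.68%). Rtp4 had 231, 298 and 292 counts in DEN/HFD MCOPPB livers, against 225, 226, 152, 153 and 145 in chow MCOPPB livers. The median was -0.0247 without chow MCOPPB 5 and 0.0232 without DEN/HFD MCOPPB 2, so its sign rests on single livers.

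With treatment as an additive term, DEN/HFD against chow used all 15 livers. Of the 43 genes, 28 were positive (49.6% of all genes were) with a median of 0.13 log2, and 0 were called by limma (1.32% of all genes were). At an unadjusted p under 0.05, 0 were lower (8.07%) and 5 were higher (8.64%): Tap1, Gbp2, Rtp4, Cmpk2 and Rsad2. Tap1 (0.46 ± 0.13 log2, limma adjusted p = 0.0754) and Gbp2 (0.51 ± 0.15 log2, limma adjusted p = 0.098) came nearest. Tap1 was called without chow MCOPPB 2 (0.53 log2, limma adjusted p = 0.0333), the chow liver with the highest Tap1, and Gbp2 without DEN/HFD saline 4 (0.62 log2, limma adjusted p = 0.0109), the DEN/HFD liver with the lowest Gbp2. The median was 0.0595 without chow saline 1, 0.0777 without DEN/HFD saline 1 and 0.0585 without DEN/HFD saline 2.

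The rest of the pathway was described by 85 further genes, of which 68 were tested. Of the 10 interferon genes in that list, 9 were at the lowest value in all 15 livers. Ifng was above it in DEN/HFD saline 2 alone, at 3.8 normalized counts. The receptor chains were expressed in all groups. Ifnar1 averaged 130 ± 17.1 counts in DEN/HFD MCOPPB, 148 ± 42.6 in DEN/HFD saline, 140 ± 21.4 in chow MCOPPB and 151 ± 78.6 in chow saline, with n = 3, 4, 5 and 3. Ifnar2 averaged 678 ± 40.4 in DEN/HFD MCOPPB, 678 ± 74.6 in DEN/HFD saline, 671 ± 89.3 in chow MCOPPB and 546 ± 98.3 in chow saline. Both chains of the type I receptor were thus present whatever the diet or treatment. Ifngr1 averaged 268 ± 67.7 in DEN/HFD MCOPPB, 265 ± 63.0 in DEN/HFD saline, 165 ± 30.9 in chow MCOPPB and 173 ± 43.1 in chow saline. Ifngr2 averaged 205 ± 122 in DEN/HFD MCOPPB, 192 ± 44.2 in DEN/HFD saline, 138 ± 56.3 in chow MCOPPB and 126 ± 52.2 in chow saline. None of the 4 receptor genes was called in any of the 7 comparisons; Ifngr1 came nearest in DEN/HFD against chow over both treatments (0.48 ± 0.14 log2, limma adjusted p = 0.086).

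For MCOPPB on chow, 47 of the 68 genes had a positive difference (50.1% of all genes did), with a median of 0.15 log2. Upward, 8 did not overlap (2.64% of all genes), 0 did so downward (2.14%), and limma called 0 (0.32%). At an unadjusted limma p under 0.05, 6 were higher (4.76% of all genes were) and 0 were lower (4.3%). Irf1, an early target of interferon gamma, had 318, 348, 330, 308 and 360 counts in chow MCOPPB livers, against 230, 170 and 174 in chow saline livers (0.62 ± 0.16 log2, limma adjusted p = 0.156). The groups did not overlap. Under DEN/HFD, Irf1 had 332, 305 and 293 counts in MCOPPB livers, against 271, 391, 215 and 302 in saline livers, which overlapped (0.08 ± 0.17 log2).

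Among the other pathway genes, the ones that passed the test were chemokines. Across both treatments, Cxcl9 and Ccl5 were higher with DEN/HFD, and they were the only 2 of the 68 genes called in any of the 7 comparisons, against 1.32% of all genes called in that one. Ccl5 passed the filter in 6 libraries, of which chow MCOPPB 4 was the only chow liver. That gene thus entered the test through the group in which it was high, and its call is not support apart from that selection. Cxcl9, which attracts CXCR3-bearing T cells, had 170, 342 and 331 counts in DEN/HFD MCOPPB livers and 435, 553, 243 and 111 in DEN/HFD saline livers, against 222, 82.5, 39.4, 116 and 82.7 in chow MCOPPB livers and 131, 41.3 and 62.8 in chow saline livers. The common difference was 1.17 ± 0.26 log2 (limma adjusted p = 0.0309). Ccl5, a chemokine that T cells and natural killer cells also make, had 15.9, 60.3 and 69.5 counts in DEN/HFD MCOPPB livers and 133, 50.8, 54.1 and 8.40 in DEN/HFD saline livers, against 10.6, 9.38, 8.81, 27.9 and 3.4 in chow MCOPPB livers and 4.22, 0 and 0 in chow saline livers (0.98 ± 0.22 log2, limma adjusted p = 0.0326). In both genes the ranges of DEN/HFD and chow livers overlapped, and Cxcl10, of the same CXCR3 ligand family as Cxcl9, was not called (0.56 ± 0.19 log2, limma adjusted p = 0.133). Of the 4 chemokines listed, 3 had a positive difference and 1 a negative one, Cxcl11 (-0.43 log2). Cxcl11, named after its values were seen, was lower at an unadjusted limma p under 0.05 (8.07% of all genes were) and was not called. It averaged 14.8 counts in DEN/HFD MCOPPB, 19.4 in DEN/HFD saline, 39.8 in chow MCOPPB and 46.0 in chow saline.

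Both calls sat close to the threshold. The Cxcl9 call was lost on leaving out any 1 of 8 livers (chow MCOPPB 3; chow saline 2 or 3; DEN/HFD MCOPPB 2 or 3; DEN/HFD saline 1, 2 or 3), and the Ccl5 call on leaving out any 1 of 10 (these and chow MCOPPB 1 or 5), with limma adjusted p reaching 0.093 and 0.0982. With the first RIN as a covariate the differences were 1.31 and 1.19 log2 (limma adjusted p = 0.461 and 0.454). MHC class II genes moved with them: of 7 listed, H2-Aa, H2-Ab1, H2-Eb1 and Cd74 were called higher in DEN/HFD over both treatments (1.32% of all genes were called in either direction). Their differences ran from 1.21 log2 for H2-Ab1 to 1.31 log2 for Cd74 (limma adjusted p at most 0.0471). Cd68 of the macrophage list and C1qc of the Kupffer cell list were called higher too. The dendritic cell and B cell lists each had 2 tested genes, 1 positive and 1 negative, with 0 called. Of the 8 Kupffer cell markers, 6 had a positive difference there and 2 a negative one, Timd4 (-0.43 ± 0.20 log2, limma adjusted p = 0.295) and Marco (-0.16 ± 0.46 log2, limma adjusted p = 0.901). Summed MHC class II levels were 2377 to 4833 counts in DEN/HFD MCOPPB, 1447 to 6490 in DEN/HFD saline, 826 to 2663 in chow MCOPPB and 894 to 1458 in chow saline. T cell markers summed to 47.0 to 94.9 in DEN/HFD MCOPPB, 57.1 to 178 in DEN/HFD saline, 34.5 to 90.5 in chow MCOPPB and 27.3 to 96.3 in chow saline, and natural killer cell markers, with Ncr1 at 0 in all livers, to at most 32.8. The part of these cells in the chemokine differences was not tested.

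**Figure D5:**
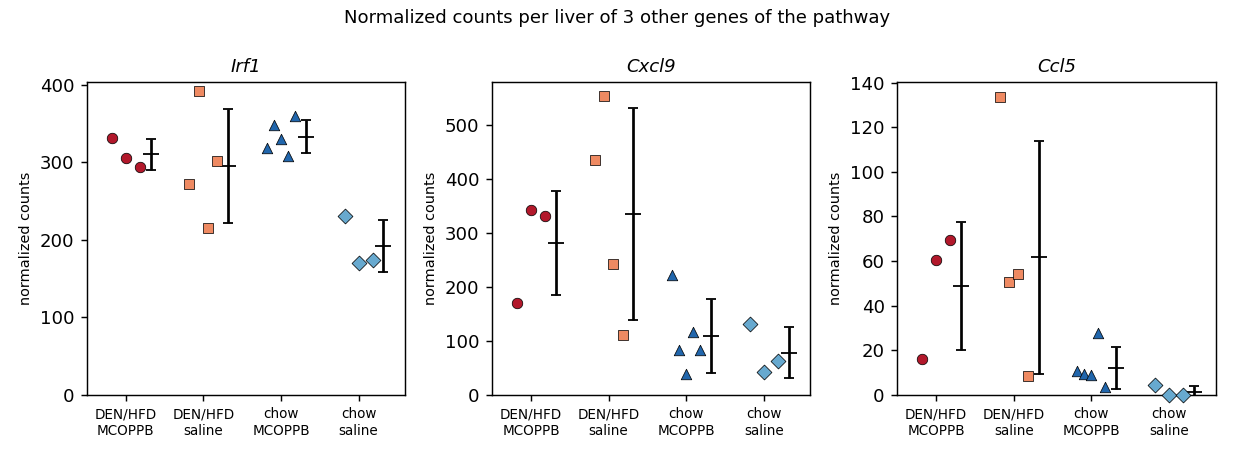
Normalized counts of Irf1, Cxcl9 and Ccl5 in each liver; points are livers and bars the mean ± SD of each group (n = 3, 4, 5 and 3, left to right). Irf1 is lower in all 3 chow saline livers than in the 5 chow MCOPPB livers, and Cxcl9 and Ccl5 are higher in most DEN/HFD livers of either treatment, with DEN/HFD MCOPPB 1 and DEN/HFD saline 4 inside the range of chow livers.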

How the data were processed

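Liver RNA of 15 mice was sequenced from directional libraries made with 250 ng of RNA and read as single 75 nt reads, per the labels' protocols. Per the submitters' processing notes, Trimmomatic, STAR 2.7.0e, HTSeq and DESeq2 were used with GRCm38 (mm10); their roles and settings are not given in the sources used here. The deposited values are variance-stabilised log2 levels made by the authors, for 54281 gene IDs; their lowest value, 5.49, stands for 0 reads. This scale compresses differences of genes with few reads. The transformation was inverted to normalized counts. Whole reads were not recovered (15.1% to 45.1% of low values per library were whole within 0.01 read), so no count test was run and no counting interval is given; depths are estimates. Positions were read from GENCODE M21, which lists 54107 of the IDs.

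Testing used limma 3.58.1 in R 4.3.3 with 4 group means over 15 libraries, a mean-variance trend (11 residual degrees of freedom, median 6.34 prior), two-sided tests and Benjamini-Hochberg adjustment over 11568 genes. All p values are from limma. Each animal has 1 library, and the error of a log2 difference is the moderated standard error (SE). The members, the lists of other pathway genes and cell markers, and the tests were chosen with earlier results of these data known. Named genes were the 6 with the smallest p per comparison, the 3 highest per kilobase, Isg15, Irf7, Irf9, Stat2, Usp18 and Ddx58, called pathway genes, and Irf1, the receptors, Cxcl9 and Cxcl10 (1 further pathway gene is not reported here and was left out of the list); others whose groups did not overlap were named after their values were seen, as were genes mentioned for shared reads. Scripts were tested on simulated data. Alternatives covered filters, scaling, pseudocounts, weights, RIN and mitochondrial share as covariates, a block by replicate number and leaving out single libraries.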

Additional observations from a re-analysis of the deposited data

How the results depend on the processing

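On the log2(normalized count + 1) scale the median difference of the tested genes was 0.508 for MCOPPB on chow and 0.501 for MCOPPB over both diets, and on the log2(normalized count + 10) scale it was 0.478 for MCOPPB on chow. With the first RIN as a covariate, the medians were 0.0394 for MCOPPB on chow, 0.466 for DEN/HFD against chow with MCOPPB and 0.181 for the difference of MCOPPB effects, and Xaf1 on chow reversed to -0.11; the cause was not tested. With the second RIN as a covariate, chosen after seeing the data, the median for MCOPPB under DEN/HFD was 0.00150 and that for MCOPPB over both diets 0.0836. For DEN/HFD against chow with MCOPPB the median was below 0 with the second RIN (-0.0184) and with a block by replicate number (-0.0320). A block by replicate number gave a median of -0.364 for the difference of MCOPPB effects. The numbers do not pair the animals: of 19 pairs with 1 number, 5 had residuals correlated above 0.1, with a mean of -0.0273, beside 0.00838 for 64 other pairs. The calls of Cxcl9 and Ccl5 were lost with the first RIN (limma adjusted p = 0.461 and 0.454), with the block (0.0675 and 0.0931) and with no filter (0.0698 and 0.0726). Of settings chosen after seeing the data, leaving out chow MCOPPB 4 and chow saline 2 together lost Cxcl9 (0.0544) and the second RIN lost Ccl5 (0.0594). Leaving out 1 library at a time gave 0 to 1 called members for DEN/HFD over both treatments and 0 in the other 6 comparisons, and no other setting called a member in any of the 7. Without 1 library, medians ranged from 0.215 to 0.343 for MCOPPB on chow and from 0.241 to 0.293 for MCOPPB over both diets. The fit with only the compared groups was not run for the additive and difference models. Group sizes of 3 to 5 and few reads for genes such as Mx1, Oas1g and Ccl5 limit precision.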

Other observations

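Outside the genes named above, and chosen after their values were seen, Tgtp1 and H2-D1 were among the pathway genes that separated DEN/HFD saline from chow saline livers. In that comparison 5 of the 68 genes were higher without overlap (4.73% of all genes), namely Ccl5, Tgtp1, Tgtp2, H2-D1 and Gbp10. Lower without overlap were 2, Adar and Ikbke (4.36%), and 0 were called by limma (0.0519%). At an unadjusted limma p under 0.05, 10 were higher (5.46% of all genes) and 1 was lower (5.5%). Ccl5 passed the filter in no chow saline liver, so its lack of overlap is not support apart from that selection. Tgtp1, a GTPase of the immunity-related family, had 147, 299, 51.4 and 68.4 normalized counts in DEN/HFD saline livers, against 23.9, 18.5 and 22.4 in chow saline livers (1.17 ± 0.31 log2, limma adjusted p = 0.19). Tgtp1 and Tgtp2 are near-identical copies, so the split of reads between them is uncertain. H2-D1, a classical MHC class I heavy chain, averaged 5976 counts in DEN/HFD saline and 3886 in chow saline (0.59 ± 0.20 log2, limma adjusted p = 0.28). H2-D1 also separated chow MCOPPB from chow saline, averaging 5738 counts with MCOPPB and 3886 with saline (0.53 ± 0.19 log2, limma adjusted p = 0.39). Neither gene was called in any comparison.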
